A study of Mus musculus with 63 samples.

Results

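The 20 arrays compared here were the native Eµ-myc lymphomas with the most and the least signal for Ighm, the gene of the immunoglobulin mu heavy chain. They were chosen from the 32 arrays labelled native, among 63 arrays in all. From the log2 expression value of Ighm its mean within each RNA input to labelling (100 or 300 ng) was subtracted, and the 10 highest arrays were set against the 10 lowest, with 12 native arrays left between them. All mice carried the Eµ-myc transgene, which drives Myc from the immunoglobulin heavy-chain enhancer and so acts in B-lineage cells, on a C57BL/6 background. The cells came from lymph nodes and were used for RNA without purification or culture, so nodal cells other than lymphoma cells contributed to each array. High-Ighm and low-Ighm lymphomas share genotype, tissue and treatment label, and were told apart by the measured Ighm value alone. The other 31 arrays carry the label CTX 4h, for 4 h after a single dose of the alkylating drug cyclophosphamide, with 300 mg/kg where the labels give a dose. They enter only where the relation to Ighm was measured in samples that did not take part in forming the groups. Whether the native tumours grew in transgenic mice or in transplant recipients cannot be settled from the labels, and neither labels nor files give the age of the animals. Since no label ties each array to a mouse of its own, p-values reflect the spread between arrays, which may be technical.

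A developing B cell first pairs the mu heavy chain with the surrogate light chain, made by Igll1 and the Vpreb genes, to form the pre-B-cell receptor. After light-chain rearrangement the same heavy chain becomes membrane IgM, which signals through Cd79a and Cd79b. Follicular B cells of lymph node and spleen add the complement receptor Cr2, the low-affinity IgE receptor Fcer2a (CD23) and the chemokine receptor Cxcr5. Lymphomas of Eµ-myc mice are known to arise at the precursor or the mature stage, and a lymph node also holds T cells, macrophages, reticular stroma and high endothelial venules.

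Ighm lay between 9.85 and 13.84 with a median of 10.94 in the high-Ighm lymphomas, against 5.57 to 8.60 with a median of 7.75 in the low-Ighm lymphomas. These values chose the groups and are given as a description only. At the upper limit lymphoma 8754 was just inside, at 0.75 above its RNA input mean, and lymphoma 1113 just outside, at 0.49 above it. At the lower limit lymphoma 9180 was just inside at -0.76 and lymphoma 8747 just outside at -0.66. The groups therefore cut a continuous range, and lymphoma 1114 stood above all others at 13.84, followed by lymphoma 9205 at 11.36. The high-Ighm group held 3 arrays of 100 ng and 7 of 300 ng, while the low-Ighm group held 6 of 100 ng and 4 of 300 ng. RNA input was a term in the model because its mean had been subtracted from Ighm to form the groups. Lymphoma 8740, in the high-Ighm group, stood apart from the others with a Myc value of 10.64, against 12.93 or more in the low-Ighm group.

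The name "high Ighm" rests on 1 of 3 probe sets that carry the symbol Ighm alone, and the other 2 ranked the lymphomas differently. The probe set used has the highest mean over the 63 arrays. Across the 32 native arrays its Pearson correlation was 0.61 with the second and 0.58 with the third, while the second and the third correlated at 0.74. Lymphoma 1114 was at 13.84 on the probe set used but at 8.30 and 8.79 on the others. On the second probe set the high-Ighm lymphomas lay between 8.30 and 11.07 (median 9.47), against 7.25 to 8.69 (median 8.11) in the low-Ighm lymphomas. On the third they lay between 5.91 and 12.24 (median 9.32), against 3.87 to 9.61 (median 6.67) in the low-Ighm lymphomas, so that the groups overlapped on both. Ranking by the second probe set would keep 7 of the 10 high and 8 of the 10 low arrays, and ranking by the third 6 and 6. The sources used here do not say which part of the mu locus each probe set reads, so "high Ighm" below means high on the probe set used.

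**Figure D1:**
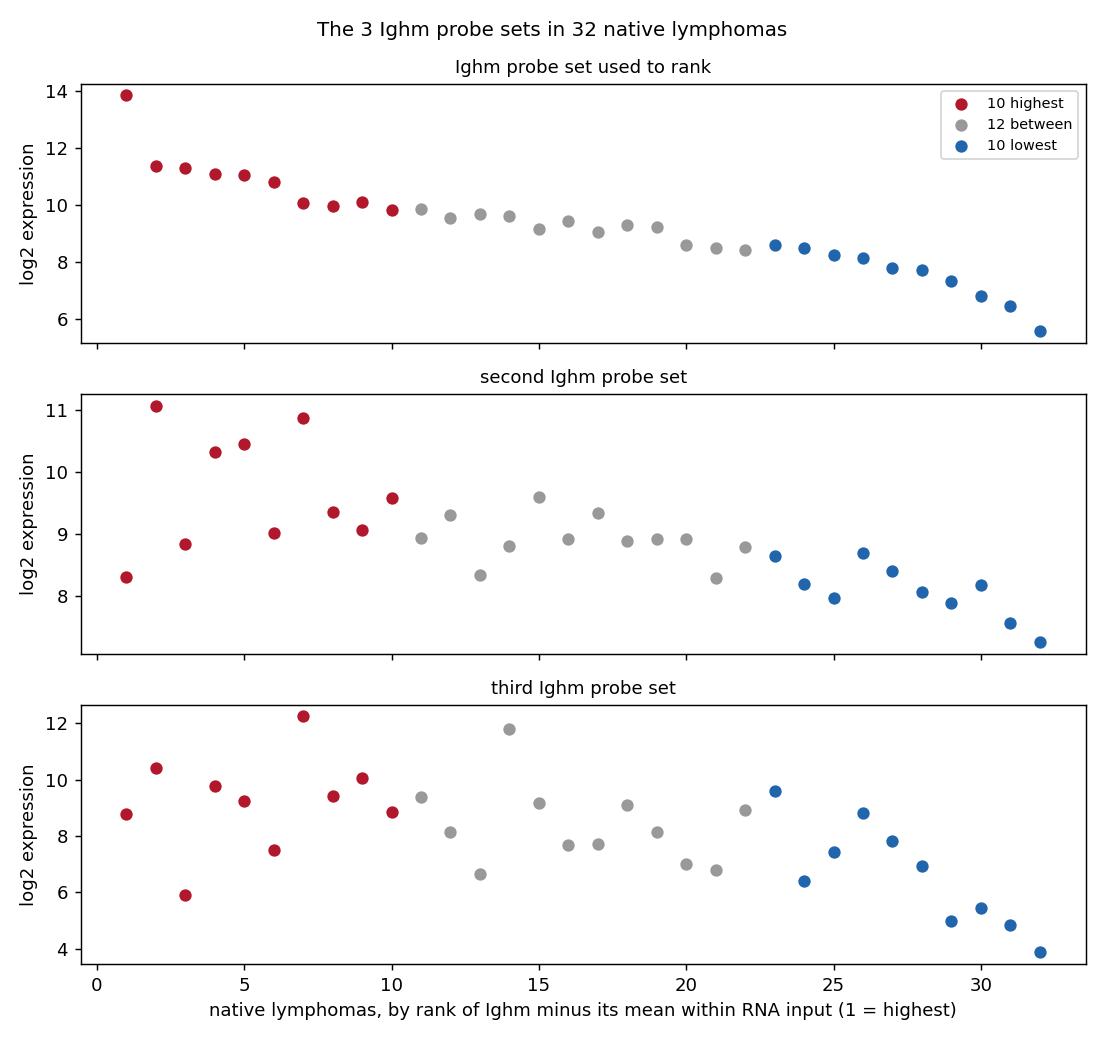
Log2 expression of the 3 Ighm probe sets (vertical axes) in the 32 native lymphomas, ordered along the horizontal axis by rank of the probe set used to form the groups; red points are the 10 highest, grey the 12 between and blue the 10 lowest arrays. Lymphoma 1114, at rank 1, is at 13.84 on the first probe set but at 8.30 and 8.79 on the others.

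Genes higher in high-Ighm lymphomas included the mature B-cell receptors Fcer2a, Cr2 and Cxcr5, the T-cell receptor chains Cd3g and Cd3e, and Glycam1 and Ccl19 of lymph node vessels and stroma. Myc, the surrogate light chain genes, Cd79a and Cd79b showed no difference past the threshold. Of 19937 genes tested besides Ighm, 75 were higher (0.376%) and 0 (0%) lower in high-Ighm lymphomas (limma with RNA input as a term, Benjamini-Hochberg adjusted p under 0.05, two-sided). At an unadjusted p under 0.05, 1669 genes were higher (8.37%) and 462 lower (2.32%). The 75 log2 fold changes ran from 0.45 for Icam1, a leukocyte adhesion molecule named here after its value was seen, to 2.96 for Glycam1, and the median of all genes tested was 0.00073. All 75, which were picked on both inputs together, were higher in high-Ighm lymphomas within the 100 ng and within the 300 ng arrays, but within either input 0 genes passed the threshold (limma, 914 and 1461 at an unadjusted p under 0.05). The groups did not overlap for 4 genes of all those tested (0.0201%), every one higher in high Ighm. Ddr2, a collagen receptor, and Hid1, named for this after its values were seen, were the 2 of these among the 75.

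The number of genes past the threshold depended on single arrays. With any 1 of the 20 arrays left out, the 75 genes, which had been picked on all 20, each kept a positive difference with an unadjusted p under 0.05. The count of genes past the adjusted threshold was 0 without lymphoma 9205, 1118, 8744 or 8753 (limma, 1931, 1749, 2012 and 1662 genes at an unadjusted p under 0.05), and 338 without lymphoma 8754. It was 311 without 8773, 46 without 8742, 33 without 1120, 23 without 9174, 22 without 9194 and 19 without 9180 or 9196. It was 14 without 9184, 13 without 9178, 12 without 1119, 11 without 9201 and 10 without 1114, the array with the discordant Ighm probe sets. Without lymphoma 8740, 68 genes were higher and 1 lower. Ranking by the second Ighm probe set gave 8 genes higher and ranking by the third 2, with all 75 genes higher. Their medians were 0.78 and 0.56, against 1.02 in the main comparison, and 75 and 41 of them had an unadjusted p under 0.05. These last rankings were added after the data had been seen.

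**Figure D2:**
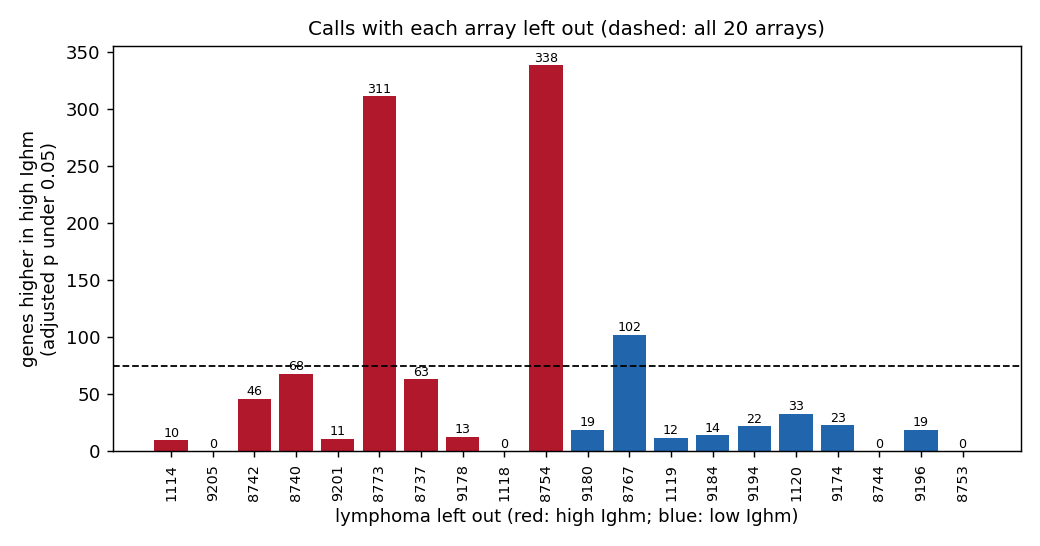
Number of genes higher in high-Ighm lymphomas at an adjusted p under 0.05 (bar height) when the lymphoma named on the horizontal axis was left out; red bars leave out a high-Ighm and blue bars a low-Ighm lymphoma, and the dashed line marks the 75 genes of all 20 arrays. The count ran from 0 to 338.

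A minority of the mature B-cell markers passed the threshold. Of 22 measured mature B-cell markers 4 rose and 0 fell, and their median log2 fold change was 0.47. Fcer2a ranged from 7.12 to 10.31 with a median of 8.97 in high-Ighm lymphomas, against 5.07 to 7.18 with a median of 6.47 in low-Ighm lymphomas. It rose by 2.38 ± 0.40 on the log2 scale (SE, adjusted p = 0.0231, limma), and 9 of 10 high-Ighm arrays lay above every low-Ighm array. The 3 lowest of the high-Ighm arrays were lymphomas 8742 (7.26), 8773 (7.23) and 8754 (7.12), and the other 7 were all at 8.64 or more. Cr2, the receptor for complement fragment C3d that acts beside the B-cell receptor, ranged from 6.51 to 9.39 (median 8.25) in high-Ighm lymphomas, against 5.43 to 7.02 (median 6.25) in low-Ighm lymphomas. Its log2 fold change was 1.96 ± 0.37 (SE, adjusted p = 0.0431), and the same lymphomas 8754 (6.51) and 8773 (6.58) were the only high-Ighm arrays inside the low-Ighm range.

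Cxcr5, the receptor that brings B cells into follicles, ranged from 5.57 to 8.94 (median 7.69) in high-Ighm lymphomas, against 4.88 to 6.80 (median 5.79) in low-Ighm lymphomas. It rose by 1.83 ± 0.30 (SE, adjusted p = 0.0231), with lymphoma 8754 again the lowest of the high group. Rasgrp3, a Ras activator downstream of the B-cell receptor, ranged from 7.17 to 9.45 (median 8.56) in high-Ighm lymphomas, against 6.15 to 7.85 (median 7.14) in low-Ighm lymphomas. Its log2 fold change was 1.51 ± 0.25 (SE, adjusted p = 0.0231) and 8 of 10 high-Ighm arrays exceeded all low-Ighm arrays. Bcl6, the transcription factor that directs germinal centre B cells and follicular helper T cells, rose by 1.08 ± 0.21 (SE, adjusted p = 0.0444). It was between 6.71 and 8.98 (median 8.16) in high-Ighm lymphomas, against 6.29 to 7.66 (median 7.13) in low-Ighm lymphomas, and only lymphoma 8754 fell inside the lower range. Further genes among the 75, picked after their values were seen, were the B-cell cannabinoid receptor gene Cnr2 (1.07), the cyclin gene Ccnd3 (1.04), the IL-21 receptor gene Il21r (1.34) and the TNF receptor family gene Cd27 (1.59), with adjusted p-values of 0.0231, 0.0431, 0.0468 and 0.0481.

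**Figure D3:**
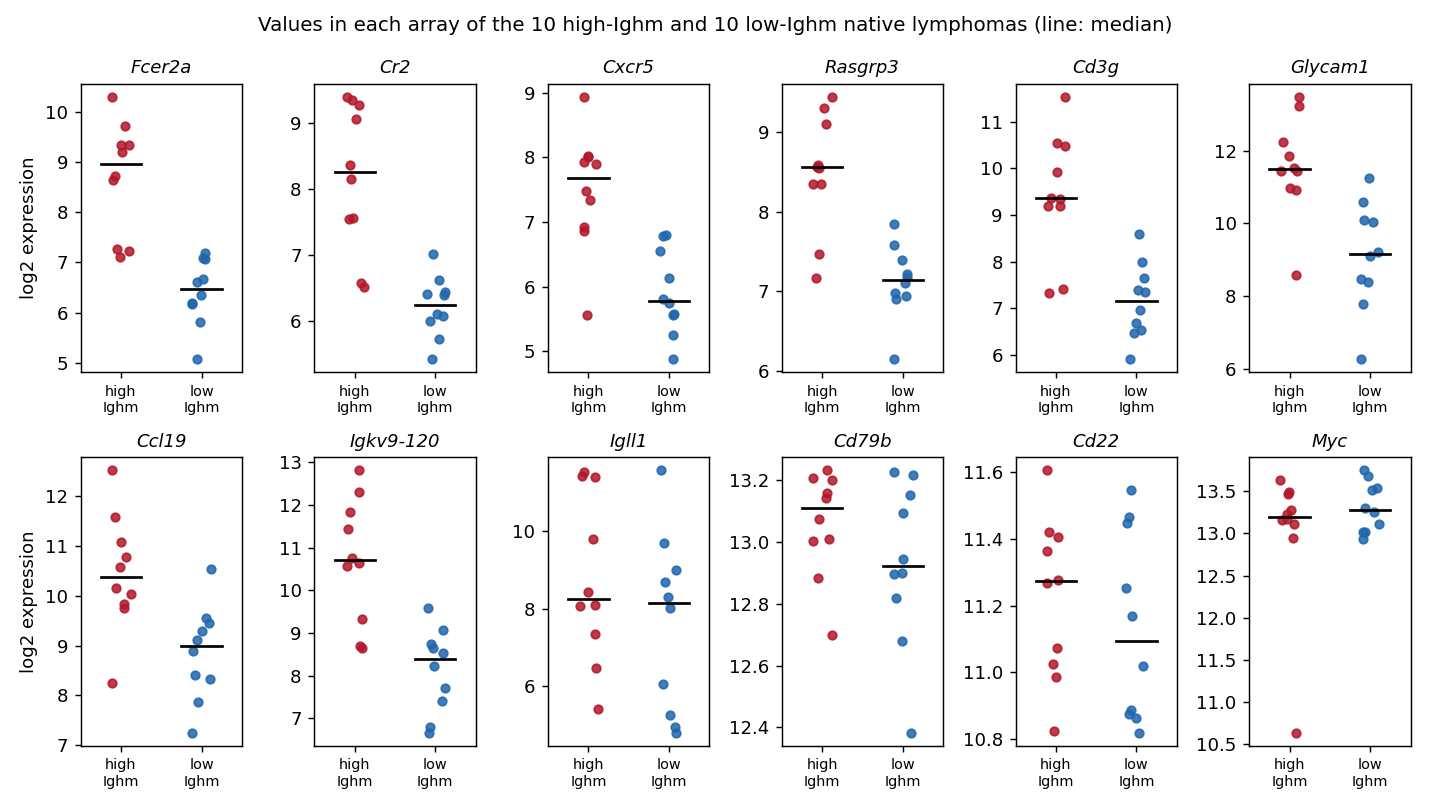
Log2 expression (vertical axes, scaled per gene) of 12 genes in each of the 10 high-Ighm (red, left) and 10 low-Ighm (blue, right) native lymphomas, with a black line at the median of each group. The first 8 genes passed the threshold, while Igll1, Cd79b, Cd22 and Myc did not; the lone low point of Myc is lymphoma 8740 at 10.64.

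Ltb, which encodes the membrane ligand lymphotoxin beta, and Nfkb2, whose product p100 is processed on signalling by that ligand's receptor, both rose. Nfkb2 was picked after its values were seen. Ltb ranged from 7.64 to 10.59 (median 9.24) in high-Ighm lymphomas, against 7.13 to 9.35 (median 7.44) in low-Ighm lymphomas. It rose by 1.61 ± 0.33 on the log2 scale (SE, adjusted p = 0.0444). The range in low-Ighm lymphomas was stretched by lymphoma 9174 at 9.35, and the next of that group was at 8.17. Nfkb2 ranged from 8.15 to 9.75 (median 8.95) in high-Ighm lymphomas, against 7.95 to 8.71 (median 8.32) in low-Ighm lymphomas, and rose by 0.83 ± 0.17 (SE, adjusted p = 0.0461). Their promoter windows are shown because both genes moved and both windows contain the NF-kappaB binding motif, a motif read by the transcription factor family to which the Nfkb2 product belongs. The sequences are RefSeq's for GRCm38.p6, from 250 bases before to 50 bases after the start on the plus strand, with motif matches in capitals. The Ltb window is chr17:35194257-35194556 and the first Nfkb2 window is chr19:46304487-46304786.
Ltb: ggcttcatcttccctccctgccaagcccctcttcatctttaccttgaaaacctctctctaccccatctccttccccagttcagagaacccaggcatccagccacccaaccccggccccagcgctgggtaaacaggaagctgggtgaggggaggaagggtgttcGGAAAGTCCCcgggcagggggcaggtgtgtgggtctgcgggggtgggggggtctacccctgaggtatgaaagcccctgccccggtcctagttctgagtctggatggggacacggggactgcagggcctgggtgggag
Nfkb2: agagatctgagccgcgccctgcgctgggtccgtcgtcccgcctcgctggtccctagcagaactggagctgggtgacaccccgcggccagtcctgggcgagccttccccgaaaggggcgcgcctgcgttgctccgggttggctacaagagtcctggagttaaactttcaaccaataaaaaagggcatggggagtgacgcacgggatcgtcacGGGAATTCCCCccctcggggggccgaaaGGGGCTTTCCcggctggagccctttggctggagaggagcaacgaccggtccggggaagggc
The motif was searched on both strands, with overlapping matches counted separately. The Ltb window held 1 match and the first Nfkb2 window 3. The windows of Ccl19, Icam1 and Fcer2a, also among the 75 genes, were read in the same way and held 0 matches. Of the 75 genes, 60 had at least 1 such window and 10 of these had a match. Of all 32851 mouse windows 8.46% held a match, and of the 79 windows of the 75 genes 15.2%, or 12, did. A match is only a stretch of letters, and binding was not measured.

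The receptor that carries mu, and the genes that define B-lineage cells, did not differ past the threshold. Cd79b, a signalling chain of the receptor, was between 12.70 and 13.23 (median 13.11) in high-Ighm lymphomas, against 12.38 to 13.22 (median 12.92) in low-Ighm lymphomas, a log2 difference of 0.17 ± 0.10 (SE, adjusted p = 0.614). Its partner Cd79a was between 11.79 and 12.99 in high-Ighm lymphomas, against 8.38 to 12.71 in low-Ighm lymphomas (log2 fold change 0.68, adjusted p = 0.602). The low end of Cd79a came from lymphoma 9196 alone. Low-Ighm lymphomas 9196 and 9174 stood apart on other B-lineage genes, with Vpreb3 at 7.61 and 8.37 (11.35 or more in the other low-Ighm arrays) and Ebf1 at 8.09 and 9.05 (10.15 or more in the others). Their Cd5 values were 9.99 and 9.87 (7.72 or less in the others), and without them singly 19 and 23 genes passed. Every array of both groups had a Cd79b value of 12.38 or more. Of 11 measured pan-B-cell markers 0 rose and 0 fell past the threshold (1 at an unadjusted p under 0.05, limma). Their median was 0.42 and 10 of the 11 were positive, against 50.3% of all genes tested. Pax5 and Ebf1, the factors that fix B-cell identity, had log2 fold changes of 0.42 and 0.86 (adjusted p = 0.539 and 0.538). The inhibitory receptor Cd22 differed by 0.052 (adjusted p = 0.964) and Ms4a1, which encodes CD20, by 0.45 (adjusted p = 0.876). Of 21 genes of the receptor complex and its proximal signalling 2 rose, namely Cr2 and Rasgrp3, and the list's median was 0.22.

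Surrogate light chain and recombination genes did not pass the threshold. Of 4 surrogate light chain genes 0 passed (1 at an unadjusted p under 0.05, limma), with a median of 0.73, and of 11 recombination genes 0 passed (1 at an unadjusted p under 0.05), with a median of 0.077. Igll1 spanned 5.42 to 11.53 (median 8.26) in high-Ighm lymphomas, against 4.80 to 11.56 (median 8.15) in low-Ighm lymphomas. Its log2 fold change was 1.83 ± 0.85 (SE, adjusted p = 0.434), and only 5 of 10 high-Ighm arrays lay above the low-Ighm median. High Ighm went with high Igll1 in lymphomas 9201 (11.53), 1118 (11.42) and 1114 (11.38), and with low Igll1 in lymphomas 9205 (5.42) and 8737 (6.47). Vpreb1, Vpreb2 and Vpreb3 had log2 fold changes of 0.54, 0.18 and 0.91 (adjusted p = 0.591, 0.770 and 0.736). Rag1, a subunit of the recombinase, spanned 5.65 to 10.09 in high-Ighm lymphomas, against 5.69 to 10.42 in low-Ighm lymphomas (log2 fold change 1.13, adjusted p = 0.545). Of the 18 genes of early precursors and IL-7 receptor signalling 0 passed (9 at an unadjusted p under 0.05, all higher, limma), with a median of 0.67. Nearest to the threshold among them was the stem cell factor receptor gene Kit, at 6.71 to 8.08 in high-Ighm lymphomas against 6.26 to 7.21 in low-Ighm lymphomas (log2 fold change 0.73 ± 0.17 SE, adjusted p = 0.0598).

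Few genes of the immunoglobulin lists could be read, and Ighg3, Igha and Jchain leaned the same way with wide spreads. So did Igkv9-120, which is outside the lists and was named because it passed the threshold. Other variable segments are not described here. Of the light chain list 1 of 11 genes was measured, namely Jchain. Of the heavy chain list without Ighm 2 of 10 were, namely Ighg3 and Igha. Igkv9-120, a kappa light chain variable segment, ranged from 8.64 to 12.81 (median 10.71) in high-Ighm lymphomas, against 6.66 to 9.58 (median 8.38) in low-Ighm lymphomas. It rose by 2.47 ± 0.54 (SE, adjusted p = 0.0490), but near-identical kappa segments can share probes, so the segment itself is uncertain. Its difference was 1.09 among the 100 ng arrays and 3.55 among the 300 ng arrays. The gamma 3 constant gene Ighg3 ranged from 5.50 to 10.76 (median 7.12) in high-Ighm lymphomas, against 4.62 to 5.94 (median 5.44) in low-Ighm lymphomas. Its log2 fold change of 1.98 ± 0.54 (SE) had an adjusted p of 0.0996, and lymphomas 8737 (10.76) and 9205 (10.53) stood above the other 8 of their group. Igha, the alpha constant gene, had a log2 fold change of 1.92 (adjusted p = 0.258) and Jchain, which joins secreted IgM and IgA, 1.287 (adjusted p = 0.467). Igha was between 9.31 and 13.01 in high-Ighm lymphomas, against 6.16 to 12.90 in low-Ighm lymphomas, where lymphoma 9194 was the highest.

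Chains of the T-cell receptor complex rose as well. Of 16 measured T-cell and NK-cell markers 3 rose and 0 fell, all 16 were positive (50.3% of all genes tested were), and the median log2 fold change was 1.05. Cd3g, a chain of the T-cell receptor complex, ranged from 7.32 to 11.53 (median 9.36) in high-Ighm lymphomas, against 5.92 to 8.59 (median 7.16) in low-Ighm lymphomas. It rose by 2.60 ± 0.42 (SE, adjusted p = 0.0231), and the 2 high-Ighm arrays inside the lower range were lymphomas 8742 and 8754. Cd3e, another chain of that complex, rose by 1.80 ± 0.36 (SE, adjusted p = 0.0444) and Ncr1, an activating receptor of NK cells, by 0.73 ± 0.16 (SE, adjusted p = 0.0490). Outside the list, Prkcq, a kinase of T-cell receptor signalling, rose by 1.95 and the lymphocyte receptor gene Cd96 by 1.87 (adjusted p = 0.0444 each). Dapl1 (2.16) and Apol7c (2.27) were among the 12 largest changes as well, with adjusted p-values of 0.0444 and 0.0431.

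Some genes of stroma and vessels of the node also rose. Glycam1, a mucin of high endothelial venules that binds L-selectin, ranged from 8.58 to 13.49 (median 11.48) in high-Ighm lymphomas, against 6.27 to 11.26 (median 9.16) in low-Ighm lymphomas. Its log2 fold change was 2.96 ± 0.51 (SE, adjusted p = 0.0231), and without the lowest high-Ighm array, lymphoma 8754, the high-Ighm values began at 10.92. Ccl19, a chemokine of reticular stroma that attracts T cells and dendritic cells, ranged from 8.25 to 12.51 (median 10.37) in high-Ighm lymphomas, against 7.25 to 10.54 (median 9.0) in low-Ighm lymphomas. It rose by 1.997 ± 0.36 (SE, adjusted p = 0.0302). The mesenchymal growth factor receptor gene Pdgfra rose by 0.69 ± 0.14 (SE, adjusted p = 0.0461). Of 17 measured stromal and endothelial markers Ccl19 and Pdgfra rose and 0 fell, with a median of 0.50. Genes of matrix and vessels outside the list, picked after their values were seen, included the matrix gene Tgfbi (1.25), the BMP antagonist gene Grem1 (0.92), the leptin receptor gene Lepr (1.28) and the endothelial matrix gene Mmrn2 (0.80), with adjusted p-values of 0.0319, 0.0444, 0.0490 and 0.0444.

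Myeloid lists were mixed. Csf1r, the receptor for the macrophage growth factor CSF1, was between 9.12 and 10.68 (median 9.81) in high-Ighm lymphomas, against 8.29 to 9.51 (median 9.04) in low-Ighm lymphomas, a rise of 0.88 ± 0.19 (SE, adjusted p = 0.0461). It was the only one of 20 macrophage markers to pass, and the list's median was -0.045. Cd5l, a secreted macrophage protein, had a log2 fold change of -0.80 (adjusted p = 0.171) and the phosphatidylserine receptor gene Timd4 one of 0.97 (adjusted p = 0.135). Dnase1l3, a nuclease secreted by macrophages and dendritic cells, rose by 1.88 ± 0.38 (SE, adjusted p = 0.0444). Neutrophil markers had a median of 0.75 with 0 of 11 past the threshold (4 at an unadjusted p under 0.05, limma), and dendritic cell markers a median of 0.37 with 0 of 10 past it (6 at an unadjusted p under 0.05).

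Myc and the growth programme it drives did not move with Ighm past the threshold. The Myc value was not split into transgene and endogenous gene. Myc was between 10.64 and 13.63 (median 13.20) in high-Ighm lymphomas, against 12.93 to 13.75 (median 13.28) in low-Ighm lymphomas. Its log2 fold change was -0.19 ± 0.28 (SE, adjusted p = 0.924), and lymphoma 8740 was the single low array. All 22 ribosome biogenesis genes had negative differences, with a median of -0.11 and 0 past the threshold (0 at an unadjusted p under 0.05, limma). Of 18 DNA replication genes 17 were negative, with a median of -0.31 and 0 past the threshold (1 at an unadjusted p under 0.05). Lymphoma 8740 stood apart on these lists too, and its scores for ribosome biogenesis, replication and mitosis genes were -1.74, -1.99 and -2.35, against -0.27, -0.35 and -0.16 or more in the other high-Ighm arrays. Without it, 12 of 22 ribosome biogenesis genes were negative (median -0.0039) and 16 of 18 replication genes (median -0.13), while 2 of 19 mitosis genes were negative (median 0.061) and Myc differed by 0.021. With all arrays, G2 and mitosis genes had a median of -0.12 and 0 of 19 past the threshold (0 at an unadjusted p under 0.05), and p53 target genes a median of 0.0074 and 0 of 21 past it (2 at an unadjusted p under 0.05). Cdkn2a, the tumour suppressor locus often lost in these lymphomas, had a log2 fold change of -0.10 (adjusted p = 0.988), and Bcl2, the survival gene, one of 1.02 (adjusted p = 0.203). Interferon response genes had a median of 0.57 with 13 of 14 positive and 0 past the threshold (8 at an unadjusted p under 0.05, limma). Oasl2 was the nearest of them, with a log2 fold change of 1.02 and an adjusted p of 0.0628. The interferon list's score was 1.28 in lymphoma 1118 and 1.27 in 9205. In the other high-Ighm arrays it was -0.25 to 0.43, against -0.66 to 0.29 in low-Ighm lymphomas.

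The remaining lists held few or no genes past the threshold. Of 29 B-lineage transcription factors only Bcl6 passed (median 0.30, 26 positive), and of 13 germinal centre and plasma cell genes again only Bcl6 (median 0.54, 12 positive). The nearest factor that missed the threshold was Foxo1, which acts in precursor and germinal centre B cells, with a log2 fold change of 0.82 (adjusted p = 0.0678). MHC class II genes (0 of 12 past the threshold, 3 at an unadjusted p under 0.05, limma) had a median of 0.29 and inhibitory co-receptors (0 of 13, 0 at an unadjusted p under 0.05) one of 0.18. All 12 MHC class II genes and 10 of the 13 inhibitory co-receptors were positive. Small nucleolar and other small RNAs were negative in all 16 cases, with a median of -0.71 and 0 past the threshold (0 at an unadjusted p under 0.05). Their lowest high-Ighm scores were -1.69 in lymphoma 1114 and -1.74 in 1118. In the low-Ighm group the lowest were -2.14 in lymphoma 1119 and -1.80 in 1120, and all other arrays were at -0.70 or more. Lymphomas with numbers that start with 1 were 2 of the 3 high-Ighm and 2 of the 6 low-Ighm arrays of 100 ng. Their part in the list's median was not tested. Medians were 0.29 for 8 adipocyte markers, 0.021 for 14 BCL2 family genes, -0.021 for 7 erythroid markers, -0.025 for 11 genes of the MYC, MAX and MXD network and -0.073 for 10 reference genes, with no gene of these past the threshold.

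Scores of T cells, stroma and salivary gland had higher medians in the high-Ighm group, and their values stand beside the rises of T-cell, stromal and mature B-cell genes named above. A list score is the mean of a list's genes after centring each gene over the 20 arrays. The T-cell and NK-cell score was -0.65 to 1.67 (median 0.40) in high-Ighm lymphomas, against -1.01 to 0.33 (median -0.45) in low-Ighm lymphomas. The stromal score was -0.022 to 0.63 (median 0.16) in high-Ighm lymphomas, against -0.62 to 0.035 (median -0.20) in low-Ighm lymphomas. Salivary gland genes differed most by median of all 30 lists, at 2.23, with 0 of 10 past the threshold (6 at an unadjusted p under 0.05, limma). Their score was -2.04 to 4.46 (median 1.90) in high-Ighm lymphomas, against -2.01 to 0.15 (median -1.64) in low-Ighm lymphomas. Scores above 1 occurred in 6 high-Ighm arrays, all of 300 ng, and in 0 of the 10 low-Ighm arrays. Car6, a secreted salivary carbonic anhydrase, spanned 5.18 to 14.004 in high-Ighm lymphomas, against 5.07 to 7.27 in low-Ighm lymphomas (adjusted p = 0.123). In these bulk arrays fewer cells of a type and less RNA per cell cannot be told apart, and the part of these cells in the rises was not tested beyond the models that follow.

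With the T-cell and NK-cell score as a further term, 0 genes passed (limma, 449 at an unadjusted p under 0.05). All 75 stayed positive, with a median of 0.46 against 1.02 without the term, and 35 had an unadjusted p under 0.05. The stromal score left 0 past the threshold (227 at an unadjusted p under 0.05), all 75 positive, a median of 0.63 and 40 of the 75 at an unadjusted p under 0.05. The pan-B-cell, small RNA and macrophage scores left 0, 0 and 4 past the threshold (2363, 2043 and 1766 at an unadjusted p under 0.05), with medians of 0.94, 0.94 and 0.96 and all 75 at an unadjusted p under 0.05. The salivary score left 0 past the threshold (1035 at an unadjusted p under 0.05), with a median of 0.82 and all 75 at an unadjusted p under 0.05. With all 3 scores together 72 of the 75 were positive, the median was 0.25 and 5 had an unadjusted p under 0.05. By gene, the log2 fold change of Cd3e was 0.21 with the T-cell score, that of Bcl6 0.30 and that of Ltb 0.32, while Fcer2a was at 1.23, Cxcr5 at 1.09 and Cr2 at 0.86. With the stromal score Fcer2a was at 1.63, Cxcr5 at 1.34 and Ddr2 at 0.11. Some of the 75 are themselves members of these scores, and the stromal and joint models were added after the data had been seen.

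**Figure D4:**
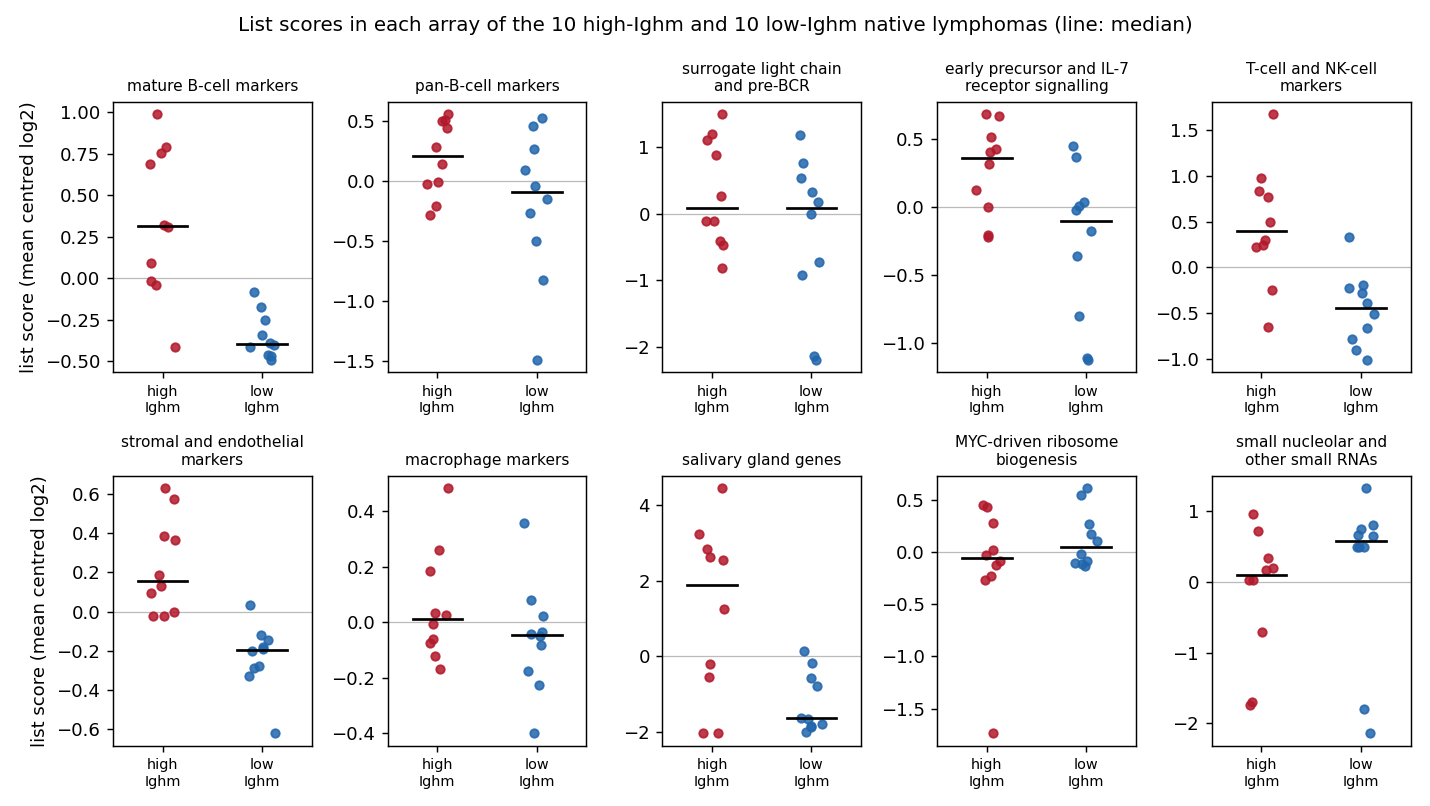
Score of 10 gene lists (mean log2 expression of the list's genes, each centred over the 20 arrays; vertical axes scaled per list) in each high-Ighm (red, left) and low-Ighm (blue, right) native lymphoma, with a black line at the group median. Mature B-cell, pan-B-cell, early precursor, T-cell, stromal, macrophage and salivary scores had higher medians in high Ighm. The early precursor score had medians of 0.36 in high-Ighm and -0.099 in low-Ighm lymphomas. The surrogate light chain score had medians of 0.078 in high-Ighm and 0.084 in low-Ighm lymphomas.

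The 31 CTX 4h arrays gave the relation to Ighm in samples that the groups did not use. There each gene was fitted against Ighm, with RNA input as a term, which gives a slope in log2 units per log2 unit of Ighm. Ighm spanned 6.51 to 12.10 in these arrays, with a median of 8.29. Every CTX 4h lymphoma whose number starts with 1 lay above that median, at 8.63 to 12.10. The number's first digit was not a term in these slopes, and slopes of the 75 genes with that term are not given. Fewer of all genes tested passed the adjusted threshold with it, as the last section states. Of all genes, 49.1% had a slope above 0, 6.03% a positive slope at an unadjusted p under 0.05, and 14 (0.0702%) a positive and 2 (0.01%) a negative slope past the adjusted threshold. All 75 genes had a slope above 0, and 57 of them had an unadjusted p under 0.05. Their median slope was 0.21, against -0.0011 over all genes. Only Igkv9-120 passed the adjusted threshold, with a slope of 0.70 ± 0.14 (SE, adjusted p = 0.0396). Slopes of Glycam1 (0.66 ± 0.22), Cd3g (0.51 ± 0.17), Fcer2a (0.48 ± 0.15), Ccl19 (0.44 ± 0.14), Cr2 (0.39 ± 0.13) and Cxcr5 (0.39 ± 0.13) had adjusted p-values from 0.224 to 0.248 (SE, limma).

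By list, the median slope in CTX 4h arrays was 0.24 for T-cell and NK-cell markers, 0.15 for mature B-cell markers, 0.13 for interferon response genes and 0.049 for stromal and endothelial markers. Neutrophil markers had a median slope of 0.43 there, and 2 of 11 passed. They were the chemokine receptor gene Cxcr2 with 0.50 (adjusted p = 0.0377) and the calcium-binding protein gene S100a8 with 0.65 (adjusted p = 0.0374). These slopes had no term for the number's leading digit or for the T-cell score. With either term the 2 genes did not both pass, as the counts in the last section show. Which of them, if any, kept its call is not given. Salivary genes had a median slope of -0.35 in CTX 4h arrays, against 0.53 in the native arrays (29 of the 31 CTX 4h arrays are of 100 ng, and no salivary slope was shown to differ). In a model of all 63 arrays, 0 genes had a slope that differed between CTX 4h and native arrays (limma, 147 or 0.737% at an unadjusted p under 0.05). The slopes of Fcer2a, Cd3g and Glycam1 differed by -0.09, 0.017 and -0.038, with adjusted p-values of 0.9999 each.

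**Figure D5:**
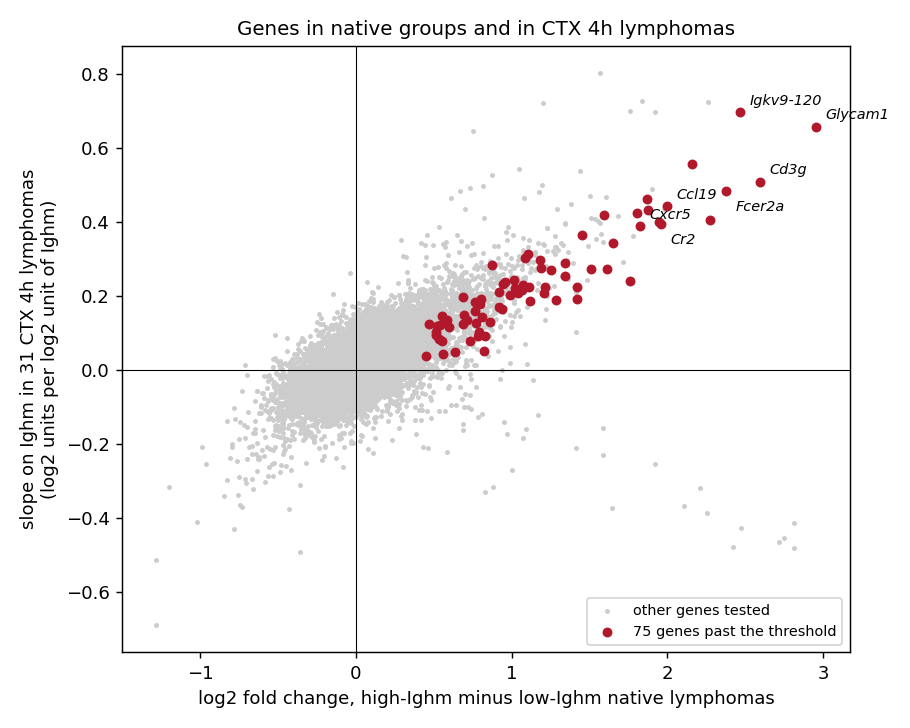
Slope of each gene on Ighm in the 31 CTX 4h arrays (vertical axis, log2 units per log2 unit of Ighm) against its log2 fold change between high-Ighm and low-Ighm native lymphomas (horizontal axis); red points are the 75 genes past the threshold and grey points the other genes tested. All 75 red points lie above 0 on the vertical axis; the grey points at the lower right include salivary gland genes.

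Fitted over all 32 native arrays, which include the 20 compared, 472 genes (2.37%) had a positive and 11 (0.0552%) a negative slope on Ighm past the adjusted threshold (limma), 69 of the 75 being among the positive ones. After subtraction of the mean within RNA input, the genes of these 32 arrays whose values ran most alike to Ighm were Osmr (Pearson r = 0.78), Ddr2 (0.77), Mmrn2, Dchs1 and Dock1 (0.76 each). These correlations are descriptions over 32 arrays that share the groups' 20 arrays. Osmr, the oncostatin M receptor, was between 7.64 and 9.87 (median 8.46) in high-Ighm lymphomas, against 7.11 to 7.88 (median 7.61) in low-Ighm lymphomas, and its highest value was that of lymphoma 8740. Ddr2 was between 7.58 and 8.56 (median 7.76) in high-Ighm lymphomas, against 6.88 to 7.56 (median 7.18) in low-Ighm lymphomas, with no overlap. The genes that ran most opposite were Odf2l (r = -0.68), Kcnmb4os2 (-0.65), Msto1 (-0.61), 2310039H08Rik (-0.60) and Mrpl41 (-0.58). Odf2l was between 6.22 and 7.15 (median 6.88) in high-Ighm lymphomas, against 6.83 to 7.81 (median 7.31) in low-Ighm lymphomas (log2 fold change -0.52 ± 0.13 SE, adjusted p = 0.0829).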

How the data were processed

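Affymetrix expression arrays were hybridised with cDNA made from 100 or 300 ng RNA, per the labels' protocols. Expression values were deposited on the log2 scale, and RMA and Partek 6.5 are named in the submitters' processing notes. RMA corrects background, normalizes arrays and summarises probes. It compresses differences of dim genes. The scanner files were not used here. Array medians lay between 6.54 and 7.11 among the native arrays, and the number of arrays limits the precision.

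The platform annotation gave 1 gene symbol to 21789 of 35557 probe sets, several to 1621 and none to 12147. RefSeq's table of GRCm38.p6 held 21698 of the first. For each of 19938 genes the probe set of highest mean over the 63 arrays was used, among those with that symbol alone, and 385 of 437 list entries had one. Ighm was left out of all tests, since it formed the groups. No 2 arrays held identical values.

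The members, the 30 gene lists and the tests were chosen with earlier results of these data known. Genes were compared with limma 3.58.1 under R 4.3.3 (lmFit, eBayes, two-sided tests), with RNA input as a term and a Benjamini-Hochberg adjusted p under 0.05 over 19937 genes. Slopes on Ighm were fitted the same way in 31 CTX 4h arrays, in 32 native arrays and, with an interaction, in all 63. Lists are described by counts and medians, with no test. Genes named are the 12 largest changes past the threshold, the 4 smallest p-values of each list, all surrogate light chain, heavy chain and Cdkn2a locus genes measured, a fixed set of B-cell genes, and the 5 genes most alike and 5 most opposite to Ighm. Other genes are marked as picked after their values were seen. The alternatives were other scalings, filters, group sizes, composition scores as terms, Ighm probe sets and arrays left out. Simulated data with the same design and independent noise for each gene were used to test the model. They held no outlying arrays and no choice of groups on a gene, so they do not cover these features of the data. Figures were drawn with matplotlib 3.10.9.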

Additional observations from a re-analysis of the deposited data

Results flagged for a closer look

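Among the 141 genes named by rule, 1 array stood apart from the rest of its group of 10 for 35 genes, in 282 tests of a group. The measure is the gap to the nearest other array as a share of the group's range, and by chance about 1 group in 20 shows such an array.

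Lymphoma 8740, a high-Ighm array of 300 ng, was the lowest of the high-Ighm group for 21 of these genes. Genes of the cell cycle, DNA replication and chromatin had log2 values there of Mki67 (9.87), Cenpf (7.53), Top2a (8.78), Bub1b (8.26), Ung (7.26), Cdc6 (6.96), Tk1 (8.17), Hmgb1 (6.90) and Hmgb2 (10.22). Myc and its ribosome biogenesis and metabolic targets were at Myc (10.64), Nop16 (9.88), Rrs1 (7.27), Gnl3 (8.85) and Ldha (12.22). The remaining genes were Vpreb3 (9.11), Cdkn2d (7.43), Bid (8.43), Tfrc (7.12), Gusb (8.69), Hprt (8.62) and Pgk1 (10.14). The same array was the highest of its group for Osmr (9.87).

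Lymphoma 8754 was the lowest high-Ighm array for Glycam1 (8.58) and Il7r (8.23). The highest high-Ighm array was lymphoma 1118 for Pik3ap1 (11.72) and Kcnmb4os2 (6.43), lymphoma 8773 for Rgs13 (9.58), lymphoma 9205 for Xcr1 (8.04) and lymphoma 8737 for the neutrophil genes Ltf (10.66) and Csf3r (8.002).

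In the low-Ighm group the highest array was lymphoma 9174 for Ltb (9.35), lymphoma 9196 for Bad (8.39) and lymphoma 8767 for Pdgfra (7.98). The lowest was lymphoma 9196 for Cd79a (8.38) and lymphoma 1120 for Cdkn1b (9.60).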

How the results depend on the processing

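The direction of the 75 genes was positive under every alternative run except the model with salivary, T-cell and stromal scores together, where 72 of 75 were positive. There Csf1r was at -0.086 (adjusted p = 0.9999, limma) instead of 0.88, and the cause was not tested. They were picked on the same arrays, and the filter on dim genes tested 62 of them. Against 75 higher and 0 lower, it was 31 higher without the RNA input term, 45 with a term for the lymphoma number's first digit, 10 with a common array median, 1 with quantile normalization and 0 in the 100 ng or the 300 ng arrays alone, where fewer arrays entered. The median of all genes moved by less than 0.1 under each of these scalings. Array weights gave 426 higher and 18 lower, groups of 8 gave 122 and 1, groups of 16 gave 0, the slope over 32 native arrays 472 and 11, and Ighm without subtraction of the RNA input mean 454 and 17. With a composition score as a term the count was 4 for macrophages and 0 for T and NK cells, pan-B cells, salivary gland, small RNAs, stroma or 3 scores together. The medians of the 75 genes were 0.96 with the macrophage, 0.94 with the pan-B-cell or small RNA, 0.82 with the salivary, 0.63 with the stromal, 0.46 with the T-cell score and 0.25 with 3 scores, against 1.02. Leaving out the array with Myc below 12 gave 68 higher and 1 lower. Leaving out 1 array at a time gave 0 to 338 higher and 0 to 3 lower genes. Of the alternatives added after the data were seen, the second Ighm probe set gave 8, the third 2 and the groups without lymphoma 1114 10. In CTX 4h arrays, slopes of 14 genes were positive and 2 negative. With the first digit as a term these counts were 1 and 0, with the T-cell score 1 and 0, and without the array titled as a repeat 13 and 0.

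No paired analysis was possible because the groups are formed from the measured Ighm values and share no numbered pairs. Over the named genes and alternatives, 5691 of 6607 values kept both sign and side of the threshold, 653 lost the call and 81 gained it. A further 182 changed sign without being past the threshold in either setting, and 65 genes had some change of sign, Myc, Rag1, Il7r and Top2a among them. Groups of 10 arrays, unpurified nodes and dim genes compressed by RMA limit what can be told apart.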
